A study of Mus musculus with 2 samples.

Results

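The genes described here are 37 genes of glycolysis and of the response to low oxygen, 22 that carry glucose from uptake to lactate and 15 others of the hypoxia response. Members were found by symbol: a probe set, the group of short oligonucleotides that reads 1 transcript on the array, was taken if the platform annotation named exactly 1 gene for it and that gene was on the list. This gave 78 probe sets for 34 of the 37 genes, out of 34958 probe sets for 18194 genes in all. Primary osteoblasts of newborn mice lacking Slc39a13 (Slc39a13-KO) were set against those of newborn wild-type mice, to see which genes differ when this zinc transporter of the SLC39/ZIP family is missing. The KO line carries a Neo cassette in place of internal exons of Slc39a13. Cells of both genotypes were released from the calvaria (skull vault) by collagenase and dispase, and the later fractions were grown in medium with 10% fetal calf serum. There was 1 array per genotype, so the differences given have no replicate check and no p-value.

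Glycolysis splits glucose into pyruvate in the cytosol and yields ATP without oxygen, and lactate dehydrogenase then reduces pyruvate to lactate, which leaves the cell. When oxygen is low, prolyl hydroxylases that need it can no longer mark the α subunits of the hypoxia-inducible factor (HIF) for destruction, and HIF then switches on most glycolytic enzymes together with genes for mitophagy, pH control and blood vessel growth. Osteoblasts are known to meet much of their ATP need by glycolysis even in air, and HIF is known to couple bone formation to vessel growth.

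The deposited values are MAS5 signals, a linear brightness that was scaled to the same trimmed mean in both arrays. Signals under a floor of 85.1, the 50th percentile of all values, were raised to it, and a probe set counted as measured if it lay above the floor in at least 1 array. A gene took the mean log2 ratio (Slc39a13-KO over wild-type) of its measured probe sets. It was called higher or lower if that mean was at least 2-fold (the study's own fold threshold) and its measured probe sets shared 1 sign. Over all 12269 measured genes, 8.01% were called higher and 5.93% lower in the Slc39a13-KO array, and 41.7% had a negative log2 ratio, with a median of 0.11. The SD between probe sets of 1 gene, the only error these 2 arrays hold, was 0.34 at the median gene and 0.75 at the 90th percentile, in log2 units. Slc39a13 itself had a signal of 90.4 in the Slc39a13-KO array, against 1309 in the wild-type array, which goes with the labels; whether its probe set lies in the deleted exons was not established.

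Relative to the bulk of genes, and under each scaling tried, the median of the glycolysis members was on the lower side in the Slc39a13-KO array. The other hypoxia-response members lay on both sides. Genes of the same pathways outside the member list did not repeat this contrast. Their median log2 ratio was 0.01 for glycolysis and -0.43 for hypoxia genes. Of 18 measured glycolysis members, 13 had a lower signal in the Slc39a13-KO array, and 3 were called lower (16.7%, against 5.93% of all genes) and 0 higher (against 8.01%). These were Hk2, Pgk1 and Pkm. The median log2 ratio of the group was -0.41, against 0.11 for all genes. With the arrays scaled on the bacterial poly-A controls it was 0.57, against 0.94 for all genes. With only the probe sets that carry no suffix for shared transcripts, it was -0.029 over 11 genes, against 0.13 for all genes. The difference from all genes was then -0.15, against -0.52 with all probe sets. Of 14 other measured hypoxia-response genes, 1 (Epas1) was called higher and 1 (Ddit4) lower, or 7.14% each, close to the shares over all genes, and the median was 0.20. Of the members measured by several probe sets, 8 had all of them on 1 side and 9 did not.

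**Figure D1:**
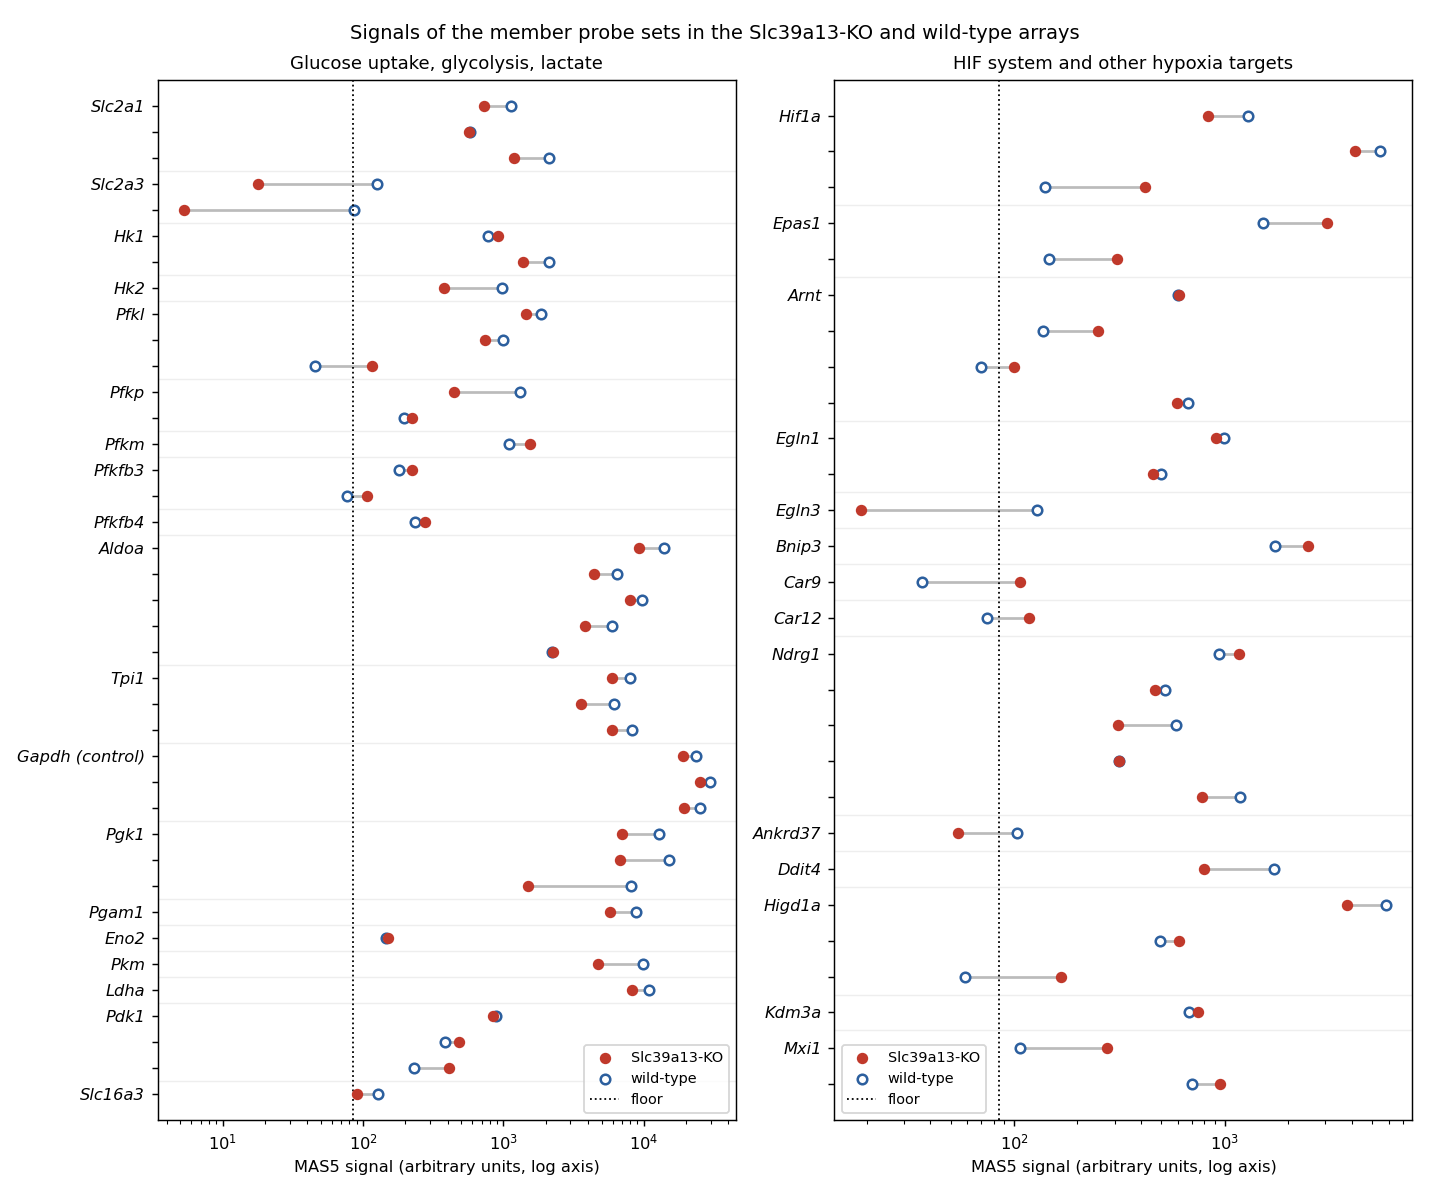
MAS5 signals (horizontal, log axis) of each member probe set above the floor in at least 1 array, filled red for Slc39a13-KO and open blue for wild-type, 1 row per probe set, with the dotted line at the floor of 85.1. On the left nearly all rows with signals above 1000 in both arrays have the Slc39a13-KO point to the left of the wild-type point, in the signals as deposited; with poly-A control scaling the median glycolysis log2 ratio is above 0 but still below that of all genes; on the right the order varies from row to row.

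Glucose enters these cells mainly through facilitative transporters, of which Slc2a1 (GLUT1) is the widespread one. Its 3 probe sets had signals of 1192, 729 and 566 in the Slc39a13-KO array, against 2115, 1137 and 577 in the wild-type array. All 3 were lower, but the mean log2 ratio of -0.50 (SD 0.42 between probe sets) did not reach 2-fold. Slc2a3 (GLUT3), the transporter typical of neurons, was close to the limit of measurement. Its brightest probe set had 17.9 in the Slc39a13-KO array, below the floor, and 125 in the wild-type array, and 2 of its 4 probe sets were below the floor in both arrays.

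Hexokinases trap glucose in the cell by phosphorylating it. Hk2, the isoform that hypoxia and insulin induce, had a signal of 380.5 in the Slc39a13-KO array, against 977 in the wild-type array, 2.57-fold lower by its 1 probe set. Hk1, the housekeeping isoform, was not called. Its 2 probe sets had 1380 and 921 in the Slc39a13-KO array, against 2101 and 779 in the wild-type array, and so disagreed in direction (log2 ratios -0.61 and 0.24).

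Phosphofructokinase catalyses the committed step and is built from liver, platelet and muscle type subunits. Pfkp, the platelet type, had a probe set with 446 in the Slc39a13-KO array and 1305 in the wild-type array, a log2 ratio of -1.55. Its other measured probe set had 222 and 195, in the same order of arrays, so the gene was not called (mean -0.68, SD 1.23). Pfkm, the muscle type, lay on the opposite side by its 1 probe set, with 1547 in the Slc39a13-KO array and 1102 in the wild-type array (log2 ratio 0.49). The brighter probe sets of Pfkl, the liver type, had 1456 and 739 in the Slc39a13-KO array, against 1848 and 992 in the wild-type array. Its dim one, 115 in the Slc39a13-KO array and below the floor in the wild-type array, went the other way, and the mean was -0.11. The bifunctional enzymes Pfkfb3 and Pfkfb4, which set the level of the main activator of phosphofructokinase and are hypoxia targets, differed little, with log2 ratios of 0.32 and 0.25.

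Aldoa, the main aldolase, cleaves the phosphorylated hexose into triose phosphates. Of its 5 probe sets 4 were lower in the Slc39a13-KO array and 1 was level, with 2238 in the Slc39a13-KO array and 2219 in the wild-type array. The mean log2 ratio was -0.41 (SD 0.27), and all 5 probe sets carry the suffix _x_at, which marks oligonucleotides that may also bind other transcripts. Aldoc, the brain isoform, was below the floor in both arrays with both its probe sets. Tpi1, which interconverts the triose phosphates, was lower in 3 of 3 probe sets, with a mean of -0.56 (SD 0.19), short of 2-fold.

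Gapdh, widely used as a reference gene, was read only by 3 control probe sets of the manufacturer, which were left out of the counts. They had 18888, 19252 and 25108 in the Slc39a13-KO array, against 23381, 25220 and 29364 in the wild-type array, from the 3′ end through the middle to the 5′ end. All 3 were lower in the Slc39a13-KO array, by a mean log2 ratio of -0.31 (SD 0.08), while the 3 control probe sets of Actb, the other common reference gene, were higher by 0.31 (SD 0.03).

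Pgk1, phosphoglycerate kinase, which makes the first ATP of the pathway, was called lower. Its 3 probe sets had 7008, 6807 and 1499 in the Slc39a13-KO array, against 12915, 15118 and 8093 in the wild-type array. All 3 were lower, with a mean log2 ratio of -1.49 (SD 0.83), a 2.81-fold difference. The size rests on the 2 probe sets with the suffix _x_at, since the probe set without it gave a log2 ratio of -0.88, short of 2-fold. Pkm, pyruvate kinase, which makes the final ATP, had 4748 in the Slc39a13-KO array, against 9881 in the wild-type array, 2.08-fold lower by 1 probe set. With quantile or loess scaling Pkm was no longer called. Between these steps, Pgam1, phosphoglycerate mutase, was 1.53-fold lower (5718 and 8742). Eno2, the neuronal enolase, was dim and level, with 149.8 and 146.

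Ldha, the lactate dehydrogenase subunit that favours lactate production, had 8190.0 in the Slc39a13-KO array, against 10920.5 in the wild-type array, 1.33-fold lower and not called. Slc16a3, the lactate exporter of glycolytic cells, was barely above the floor, with 91.2 and 129. Pdk1, a kinase that inhibits pyruvate dehydrogenase and a known HIF target, was not lower. Its 3 measured probe sets had 847, 479 and 412 in the Slc39a13-KO array, against 888, 387 and 229.6 in the wild-type array (mean 0.36, SD 0.46).

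**Figure D2:**
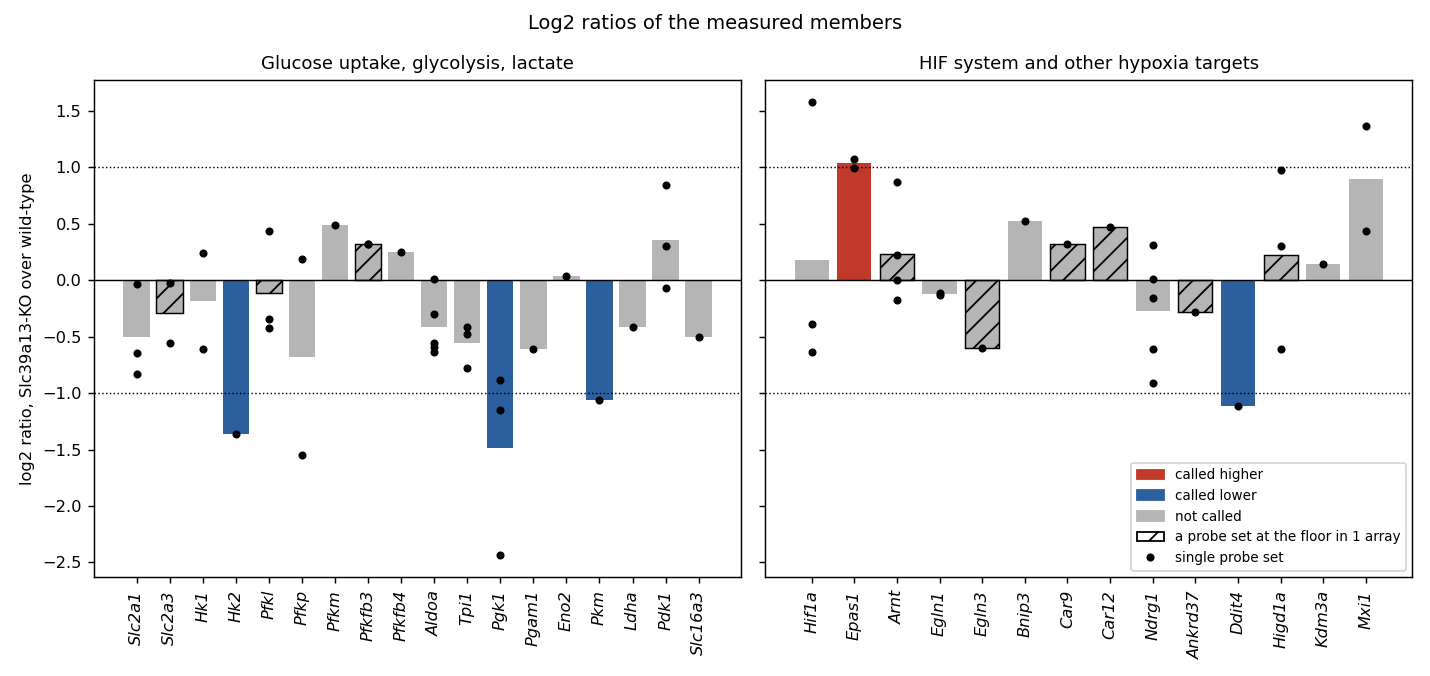
Difference between the Slc39a13-KO and wild-type arrays (log2 ratio, KO over wild type) of the 32 measured members, in pathway order on the left and by role on the right; bars give gene means, dots single probe sets and dotted lines 2-fold. Blue bars (Hk2, Pgk1, Pkm and Ddit4) are called lower and the red bar (Epas1) higher. Hatched bars hold a probe set at the floor in 1 array. With poly-A control scaling 0 of these members were called lower, against 1.75% of all genes. Called higher were then 5 glycolysis members and 6 other hypoxia-response members, against 45.8% of all genes.

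The bright probe sets of the glycolysis group, a selection made after the values were seen, showed the shift most evenly. Of 18 glycolysis probe sets with a signal of at least 1000 in both arrays, 16 (88.9%) were lower in the Slc39a13-KO array, and their median log2 ratio was -0.60. The 2 exceptions were the probe set of Pfkm and the level one of Aldoa. Over all 5251 probe sets past the same minimum, 54.7% were lower and the median was -0.05. The share was 87.0% of 23 with a minimum of 500 and 92.3% of 13 with a minimum of 2000, against 50.9% and 58.4% over all genes. The 18 probe sets read 10 genes, the 23 read 11 and the 13 read only 6, so the probe sets are not independent of each other.

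**Figure D3:**
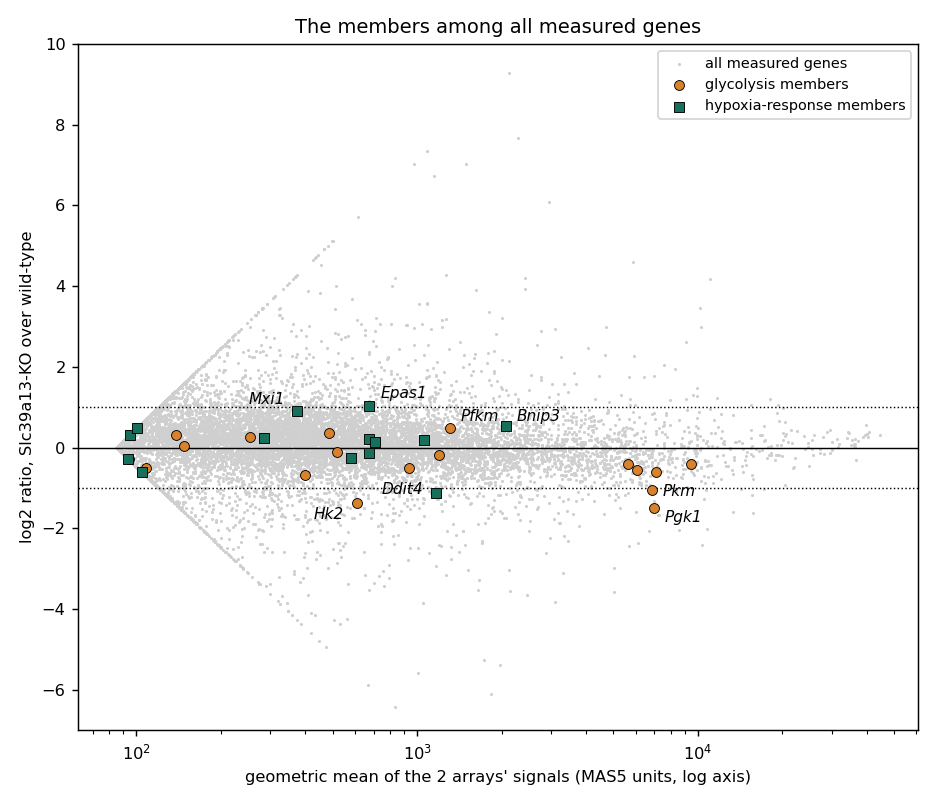
Gene log2 ratio, Slc39a13-KO array over wild-type array (vertical), against the geometric mean of both signals (horizontal, MAS5 units, log axis), with grey points for the 12269 measured genes, orange circles for glycolysis members and green squares for hypoxia-response members. The bright glycolytic genes other than Pfkm lie below 0 as scaled, down to Pgk1, whereas the hypoxia-response genes lie around 0 between Ddit4 and Epas1; poly-A control scaling lifts all points together.

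The HIF subunits did not move together. Epas1, which encodes HIF-2α, a subunit known from endothelium and other specialised cells, was higher in both probe sets, with 3049 and 308 in the Slc39a13-KO array, against 1526 and 146 in the wild-type array. The log2 ratios of 1.00 and 1.08 put the mean at 2.05-fold, just past the threshold, and the call was lost with median, quantile and loess scaling, with a 70th-percentile floor and with the brightest probe set alone (log2 ratios 0.79 to 2.06 over all ways of processing). Hif1a, the widely expressed α subunit, was not called, as its probe sets disagreed. The brightest had 4163 in the Slc39a13-KO array and 5460.4 in the wild-type array, another 829 and 1290, and the dimmest measured one 420.1 and 141 (log2 ratios -0.39, -0.64 and 1.58). Arnt, the constitutive partner of both, was not called. Its 2 bright probe sets had 604 and 594 in the Slc39a13-KO array, against 602 and 671 in the wild-type array, and the mean log2 ratio over 4 probe sets was 0.23 (SD 0.46).

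Egln1 and Egln3 are HIF prolyl hydroxylases, oxygen sensors that HIF itself induces. Egln1, the main one, had 911 and 455 in the Slc39a13-KO array, against 987 and 499.5 in the wild-type array, a mean log2 ratio of -0.12 (SD 0.01). Egln3, the isoform most responsive to HIF, lay below the floor in the Slc39a13-KO array (18.7) and had 129 in the wild-type array. Its ratio is thus a bound, at least 1.51-fold lower, and with the floor at the 30th percentile or none it was called lower.

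Of 9 measured hypoxia targets outside glycolysis, 1 (Ddit4) was called lower (11.1%, against 5.93% of all genes) and 0 higher (against 8.01%). With so few genes, 1 call does not set this group apart from all genes. Ddit4 (REDD1), a stress-induced inhibitor of mTORC1, had 794 in the Slc39a13-KO array, against 1717 in the wild-type array, 2.16-fold lower by 1 probe set. Bnip3, a mitochondrial receptor for mitophagy, lay on the other side, with 2484 in the Slc39a13-KO array and 1728 in the wild-type array (log2 ratio 0.52). Mxi1, an antagonist of Myc that HIF induces, was also higher in both its probe sets, with 945 and 277 in the Slc39a13-KO array, against 699 and 107 in the wild-type array. Its mean of 0.90 (SD 0.66) did not reach 2-fold.

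The remaining targets were level, dim or split between probe sets. Kdm3a, a histone demethylase that needs oxygen, had 744 and 675 in the Slc39a13-KO and wild-type arrays. Ndrg1, a stress-responsive cytoplasmic protein, had 5 probe sets from -0.91 to 0.31 (mean -0.27). Higd1a, a mitochondrial protein, had 3822 in the Slc39a13-KO array and 5838 in the wild-type array by its brightest probe set, while its 2 dimmer ones went the other way (mean 0.22, SD 0.80). The carbonic anhydrases Car9 and Car12, membrane enzymes that control pH and are among the genes most dependent on HIF, were just above the floor in the Slc39a13-KO array (106 and 118) and below it in the wild-type array (36.4 and 74.6). Ankrd37, an ankyrin-repeat protein that HIF induces, had the opposite order, 54.3 in the Slc39a13-KO array and 103 in the wild-type array. For these 3 genes the ratio is only a bound. Of the members with no value here, Gpi1, Eno1 and Bnip3l had no probe set with their symbol alone.

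HIF binds a short core, ACGTG or GCGTG, in the hypoxia response elements of its targets, and the promoters are shown to compare members called lower with Bnip3, a hypoxia target that was not. The sequences are from RefSeq (build GRCm38.p6), 250 bases up to the transcription start, 5′ to 3′ on the gene's strand, with each core on either strand in capitals, so that CACGT and CACGC are cores on the other strand.
Pgk1 (chrX:106186850-106187099, + strand): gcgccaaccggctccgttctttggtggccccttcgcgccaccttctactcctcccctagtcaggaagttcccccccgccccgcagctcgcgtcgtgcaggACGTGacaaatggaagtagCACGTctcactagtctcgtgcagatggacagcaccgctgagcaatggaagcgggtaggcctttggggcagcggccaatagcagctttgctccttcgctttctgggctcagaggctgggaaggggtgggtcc
Hk2 (chr6:82774455-82774704, - strand): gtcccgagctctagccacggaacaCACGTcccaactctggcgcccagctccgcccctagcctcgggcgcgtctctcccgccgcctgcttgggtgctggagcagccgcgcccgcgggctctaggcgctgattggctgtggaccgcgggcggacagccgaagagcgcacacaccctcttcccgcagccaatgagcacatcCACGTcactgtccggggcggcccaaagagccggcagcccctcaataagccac
Ddit4 (chr10:59951771-59952020, - strand): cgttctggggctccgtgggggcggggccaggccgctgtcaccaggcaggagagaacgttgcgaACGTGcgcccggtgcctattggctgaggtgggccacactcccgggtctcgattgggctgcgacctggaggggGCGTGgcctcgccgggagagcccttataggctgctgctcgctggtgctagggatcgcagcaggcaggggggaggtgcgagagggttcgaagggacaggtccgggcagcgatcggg
Bnip3 (chr7:138909507-138909756, - strand): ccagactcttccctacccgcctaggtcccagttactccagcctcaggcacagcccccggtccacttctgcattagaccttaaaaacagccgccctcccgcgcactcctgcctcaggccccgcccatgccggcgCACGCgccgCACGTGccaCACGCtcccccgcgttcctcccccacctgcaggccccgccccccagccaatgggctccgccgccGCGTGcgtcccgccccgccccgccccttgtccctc
The windows of Pgk1 and Hk2 each held 2 ACGTG cores, that of Ddit4 held 1 ACGTG and 1 GCGTG, and that of Bnip3 held 5 cores, of which 2 overlap in the palindrome CACGTG, which is also the letters of an E-box. Pkm has 2 annotated starts, and 1 of them had a core. Among the members, 33 had a promoter sequence and 29 of these (87.9%) held at least 1 core before some start, against 41.5% of all 27025 genes. Counted by window, since genes differ in their number of starts, 76% of 50 member windows held a core, against 38.6% of 32851. The members were listed for pathways that HIF is known to switch on, so a raised share is no independent sign of HIF binding. ACGTG alone was held by 54.5% of these members and 18.5% of all genes. The member windows also had more G and C, with a median of 60.4% against 52.4% over all windows, and a median of 14 CpG against 6; its part in the count of cores, each of which contains a CpG, was not tested. No core was found before any start of Tpi1, Eno2, Car12 and Gpi1.

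A wider list held 73 other genes of the same pathways. Of 61 measured, 5 were called higher (8.20%, against 8.01% of all genes) and 11 lower (18.0%, against 5.93%) in the Slc39a13-KO array. Among 31 other glycolysis isoforms and branches, 3 were called higher (9.68%) and 2 lower (6.45%). Both are near the shares over all genes, and the median log2 ratio was 0.01. Among 30 other oxygen-sensing genes and hypoxia targets, 2 were called higher (6.67%) and 9 lower (30%), and the median was -0.43. With poly-A control scaling 22 of the 61 were called higher and 2 lower, while 45.8% of all genes were called higher and 1.75% lower. The median log2 ratio of the related genes was then 0.71, against 0.94 for all genes.

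Ldhb, the subunit that favours the conversion of lactate to pyruvate, stood out beside Ldha. Its 4 probe sets had 8559 to 10408 in the Slc39a13-KO array, against 1522 to 1990.0 in the wild-type array, 5.53-fold higher with a log2 ratio of 2.47 (SD 0.11). Bpgm, which diverts a glycolytic intermediate to bisphosphoglycerate, was 7.55-fold lower, with 256 to 336 in the Slc39a13-KO array and 1394 to 3250.1 in the wild-type array over 3 probe sets. Adm (adrenomedullin), a vasodilator peptide, had a mean signal of 714 in the Slc39a13-KO array, against 2981 in the wild-type array, 4.17-fold lower. Edn1 (endothelin), a vasoconstrictor, had 105 and 419, 3.98-fold lower. Vegfa, the main angiogenic factor, chosen after its values were seen, had 282 and 769, 2.73-fold lower. Igfbp3, which binds insulin-like growth factors, was 3.20-fold lower and the transcriptional coregulator Cited2, itself a brake on HIF, 2.74-fold lower. Ppp1r3c, a glycogen-targeting subunit of protein phosphatase, was at least 9.31-fold higher, with 1804 and 560.1 in the Slc39a13-KO array, against 137 and 77.7 in the wild-type array, of which 77.7 lies below the floor. The HIF partner Arnt2, typical of neurons, was at least 3.24-fold higher, and the glucose transporter Slc2a12 and the activator-setting enzyme Pfkfb2 at least 3.05-fold and 2.14-fold higher.

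**Figure D4:**
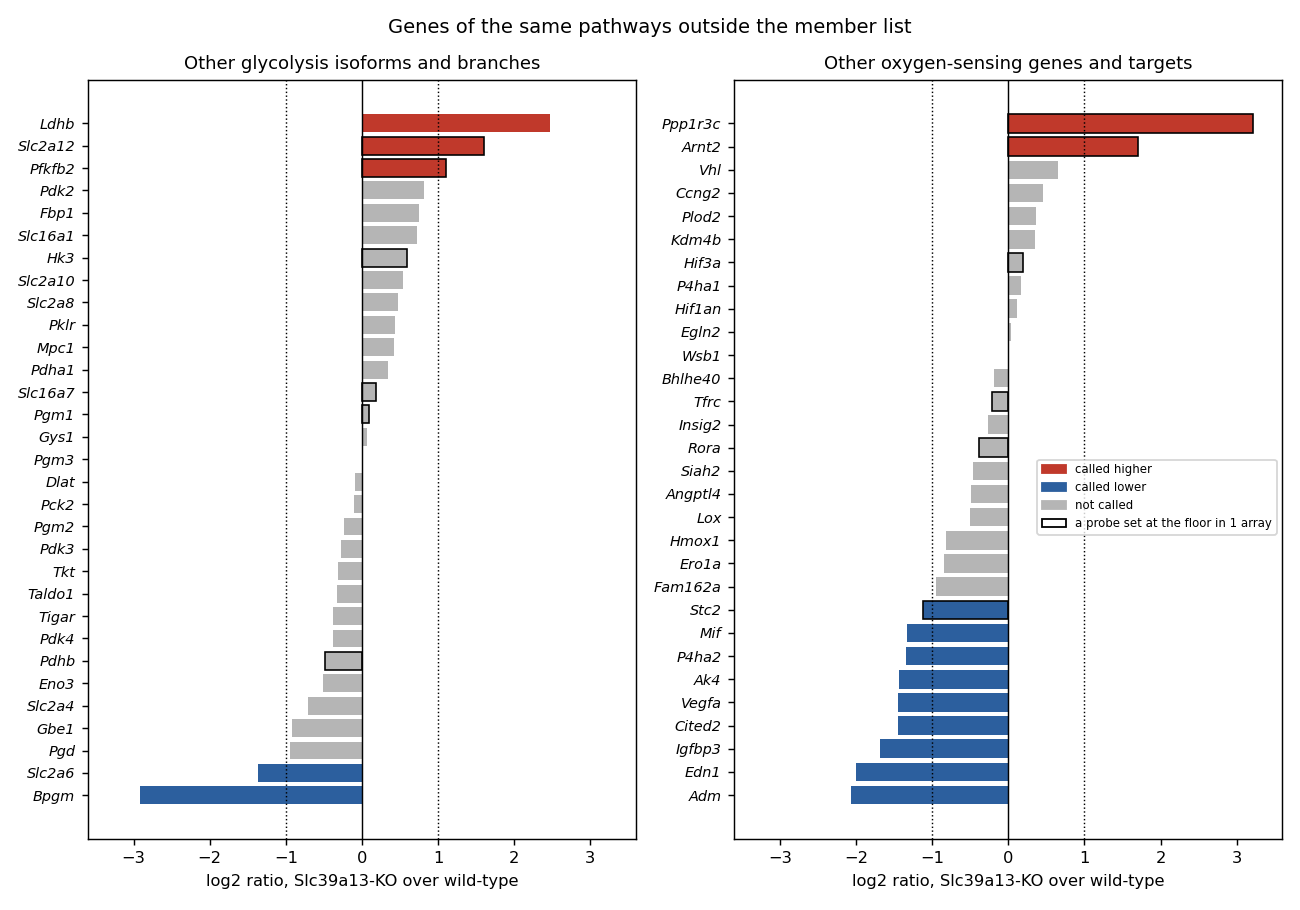
Gene log2 ratio, Slc39a13-KO array over wild-type array (horizontal), for the measured genes of the same pathways outside the member list, with red bars called higher, blue bars called lower, black outlines where a probe set lay at the floor in 1 array and dotted lines at 2-fold. On the right 9 blue bars, from Stc2 to Adm, stand against 2 red ones, and on the left Ldhb and Bpgm lie furthest apart. With poly-A control scaling the median of these genes is above 0, at 0.71, but below the 0.94 of all genes.

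Markers of other cell types moved between the same arrays. All 10 of 10 chondrocyte markers were called higher in the Slc39a13-KO array, with a summed signal of 146206, against 7235 in the wild-type array; Col2a1, the main cartilage collagen, had 47019 and 2592, and Acan, the cartilage proteoglycan aggrecan, had 4456 in the Slc39a13-KO array and a signal below the floor in the wild-type array. Smooth muscle markers went the other way, with 5 of 6 called lower and sums of 15892 in the Slc39a13-KO array and 44159 in the wild-type array; Acta2, smooth muscle actin, had 1148 and 3518. Of 8 macrophage and osteoclast markers, 5 were called higher (sums 6638 and 5090.1), among them Lyz2, a lysozyme of myeloid cells, with 2146 and 255. Of 6 measured osteoblast markers 2 were called higher and 0 lower (sums 83973 and 81036), with Ibsp below the floor in both arrays. Of 3 measured skeletal muscle markers 2 were called lower (sums 755 in the Slc39a13-KO array and 1465 in the wild-type array), and of 4 measured neural markers, a list that includes the member Eno2, 3 were called lower (sums 610.4 and 1889.6). Of 2 erythroid markers on the array 0 were above the floor. Col1a1, the main bone collagen, had 7655 in the Slc39a13-KO array and 12229.8 in the wild-type array (log2 ratio -0.68, SD 1.02 between 2 probe sets). Alpl, the alkaline phosphatase of osteoblasts, was dim, with 197 in the Slc39a13-KO array and a signal below the floor in the wild-type array. In a culture, fewer cells of a type and less RNA per cell cannot be told apart, and the part of these cell types in the glycolysis values was not tested. The ratio of 3′ to 5′ signal, a sign of RNA integrity, was 0.75 for Gapdh and 1.26 for Actb in the Slc39a13-KO array, against 0.80 and 1.30 in the wild-type array.

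**Figure D5:**
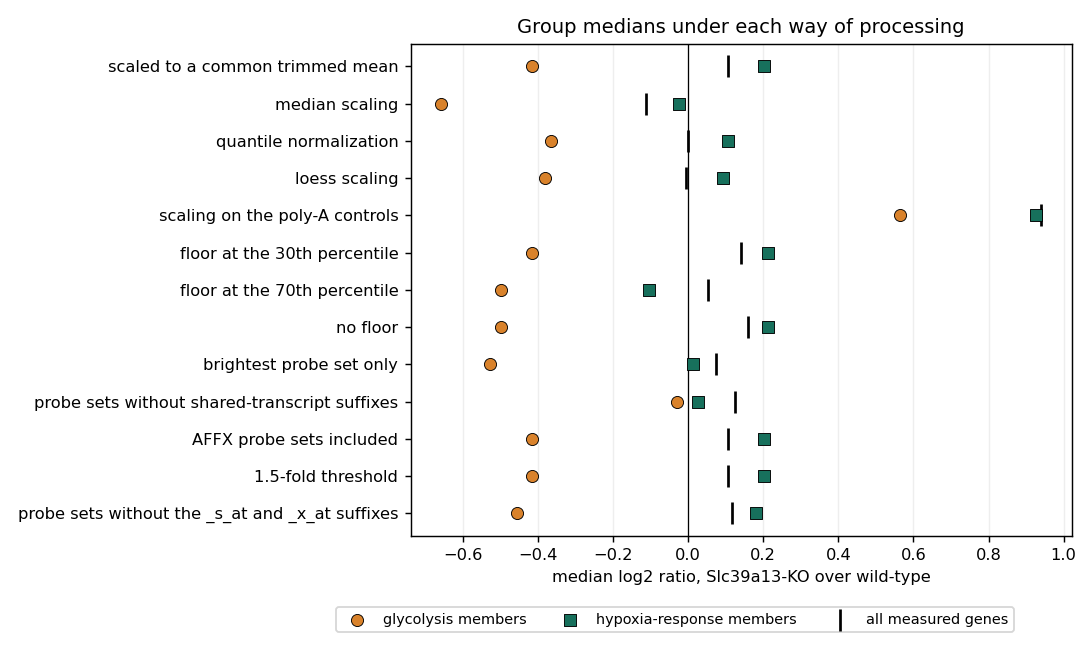
Median gene log2 ratio, Slc39a13-KO array over wild-type array (horizontal), of the glycolysis members (orange circles), the other hypoxia-response members (green squares) and all measured genes (black ticks) under each way of processing (rows). The glycolysis median lay left of the all-gene tick in all 13 rows, with differences of -0.66 to -0.15. It was above 0 only with scaling on the poly-A controls. The 1.5-fold row changes only the calls, so its medians repeat those of the first row. The row that includes control probe sets adds only Gapdh to the group.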

How the data were processed

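Total RNA of Slc39a13-KO and wild-type primary osteoblasts was hybridised, after biotin labelling, to whole-genome mouse arrays from Affymetrix, 1 array per genotype. Whether each array read 1 culture or a pool of several is not stated. The deposited values are linear signal intensities per probe set, computed by the authors with MAS5 per the labels, whereas the methods of the study name gcRMA. After trimming 2% at each end their mean was 500.003 in both arrays, which hides any difference in mRNA content per cell. The sources used here give no MAS5 version, and the number of arrays limits the precision.

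Of 45101 probe sets, 64 controls were left out of gene values; 34945 named 1 gene, 932 several and 9160 none. Names were matched by gene ID to RefSeq for 34741, and 0 changed. Floor, gene means and calls were computed in Python 3.11.15 with pandas 2.3.3 and tested on simulated data. Members and lists were chosen with earlier results of these data known. Named were all members, Slc39a13, up to 5 related genes called in each direction with the largest differences, and 6 defining cell type markers; Ibsp, Actb, Vegfa, Stc2 and the genes of the closing observations fall outside this rule and were chosen after their values were seen. Also run were 11 alternatives of scaling, floor, probe sets and threshold, and 1 more chosen after seeing the data. No test was possible with 1 array per genotype.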

Additional observations from a re-analysis of the deposited data

How the results depend on the processing

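With 1 array per genotype no replicate could be left out, and alternatives were read against the median SD between probe sets (0.34) or, for counts, a factor of 1.5. Hk2, Pgk1, Pkm and Ddit4 stayed below 0 and Epas1 above 0 under all 12 alternatives. Hk2, Pkm and Ddit4 have 1 probe set each, above every floor used, so only the scaling alternatives could change their log2 ratios. With poly-A control scaling these were -0.34 for Hk2, -0.035 for Pkm and -0.091 for Ddit4, the last 2 close to level. Scaling on the bacterial poly-A controls, whose 24 measured probe sets all had lower signals in the Slc39a13-KO array (median log2 ratio -1.02), moved the median of all genes to 0.94. With it 5 glycolysis members were called higher and 0 lower (median 0.57), 6 other hypoxia-response members were higher and 0 lower (median 0.93), and 22 related genes were higher and 2 lower; 45.8% of all genes were then called higher and 1.75% lower. For the other hypoxia-response members, the number called higher was 0 with median, quantile or loess scaling, with a floor of the 70th percentile and with only the brightest probe set. It was 2 with a 30th-percentile floor, 3 with no floor and 2 at 1.5-fold, and the number called lower was 2 under each of these 3. Of the related genes 3 were called higher with a floor of the 30th or 70th percentile (7 lower at the 70th) or without shared-transcript suffixes (_s_at, _x_at, _a_at), and 10 higher and 17 lower at 1.5-fold. The glycolysis median was -0.029 without such suffixes, over 11 genes, and -0.46 over 16 genes when _a_at was kept. Over all genes, at 1.5-fold 2378 were higher and 1480 lower, with no floor 3077 and 2049, and with a 30th-percentile floor 1596 higher. The share of calls that were higher was below that of lower calls with median, quantile and loess scaling (654 higher and 1050 lower, 774 and 854, 764 and 869). The causes were not tested. Low MAS5 signals are noisy, and values near the floor have no order.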

Other observations

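Some genes next to the pathway differed less than 2-fold. Of the pentose phosphate pathway, which makes NADPH and ribose, Pgd had a mean signal of 2352 in the Slc39a13-KO array, against 4538 in the wild-type array (log2 ratio -0.95, SD 0.27 between 4 probe sets), and Tkt and Taldo1 had log2 ratios of -0.31 and -0.34. On the way of pyruvate into the mitochondria, the carrier Mpc1 had 3875 in the Slc39a13-KO array and 2905 in the wild-type array (log2 ratio 0.42), and Pdha1, a subunit of pyruvate dehydrogenase, 4008 and 3154 (log2 ratio 0.35, SD 0.51). Vhl, which targets hydroxylated HIF for degradation, had 503 and 319 (log2 ratio 0.66, SD 0.54). They were picked out with their values known, none of them was called, and the directions are those relative to the bulk of genes.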
